A study of Atriplex lentiformis with 9 samples.

Results

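The metal tolerance proteins (MTPs) of quailbush roots were described across mine tailings amended with 3 amounts of compost. The family was defined by name: an entry belonged to it when its Arabidopsis protein name was MTP, with or without the letter A, B or C, followed by a number. Of the 5164 entries in the data, 4 met this rule, namely MTP1, MTP10, MTP12 and MTPC4, and all 4 were among the 4801 entries abundant enough to be tested (10 or more normalised reads, as defined below, in 2 or more libraries). The rule reads names and not values.

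Quailbush (Atriplex lentiformis) is a salt-tolerant desert shrub. Its roots were sampled after 11 weeks in mine tailings mixed with 10% compost (TC10), 15% compost (TC15) or 20% compost (TC20). There was no group without tailings or without compost, so every plant was exposed to the mine waste. Each treatment had 3 plants, and the labels name separate plants. TC15 and TC20 had 3 libraries each and TC10 had 2, since the file titled TC10 plant 5, which was left out, carried the header and all 4995 values of TC15 plant 6. The 8 libraries held 3030394 to 4752637 recovered reads. The values are reads per entry divided by 1 size factor per library, called normalised reads here. Each entry carries the name of 1 Arabidopsis protein. How quailbush transcripts were assigned to these names is not stated, so close relatives within the family could share or exchange reads. Of 12 root markers 3 were listed, and of these SHR, with 59.1 to 438 normalised reads, and PHO1, with 810 to 4692, were clearly present, while SCR had 2.80 to 15.4. The green-tissue markers were represented by CB4B alone, at 18.4 to 120.06 normalised reads.

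MTPs belong to the cation diffusion facilitators, membrane proteins that move divalent metals out of the cytosol, usually in exchange for protons. In Arabidopsis, MTP1 sits in the vacuolar membrane and loads zinc into the vacuole, which is a main route of zinc storage and tolerance in roots. MTP12 works together with MTP5 in the Golgi, where it supplies zinc to the secretory pathway, and MTP10 falls into the manganese group of the family. MTPC4 is a further member. These roles come from Arabidopsis and were not examined in quailbush. The series title concerns zinc accumulation in this plant and the plant genes behind it, and the question here is whether the entries that carry zinc and manganese out of the cytosol differed with compost or with the metal content of the root.

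MTP1, the vacuolar zinc loader, differed by up to 2.28-fold between libraries. It had 900.4 and 1208 normalised reads in TC10 plants 2 and 4. In TC15 plants 2, 6 and 10 it had 1487, 1259 and 1339. In TC20 plants 3, 5 and 9 it had 1184, 1186 and 651. The TC15 libraries were the 3 highest of the 8, above both TC10 libraries and above all 3 TC20 libraries, and TC20 plant 9 was lower than every other library. The mean ± SD was 1054 ± 217 for TC10 (n = 2), 1362 ± 116 for TC15 (n = 3) and 1007 ± 308 for TC20 (n = 3). Of all tested entries, 5.89% likewise had every TC20 library below every TC15 library, and 12.4% had every TC15 library above every TC10 library. The share with every TC15 library above all libraries of both other treatments was not counted. In RNA from whole roots, fewer cells of a type and less RNA per cell cannot be told apart, here or for the entries below.

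The MTP1 difference did not pass the test. In TC20 against TC15 its log2 difference was -0.48, with a 95% interval of -1.08 to 0.11 (limma, adjusted p = 0.790). Without TC20 plant 9 the log2 difference was -0.20. TC15 against TC10 gave 0.38 (interval -0.28 to 1.05, limma adjusted p = 0.799), with 0.17 when TC10 plant 2 was left out and 0.59 when TC10 plant 4 was. TC20 against TC10 gave -0.10 (interval -0.77 to 0.56, limma adjusted p = 0.977). This difference was 0.18 without TC20 plant 9, 0.11 without TC10 plant 4 and -0.31 without TC10 plant 2. In exact two-sided permutation tests, the p was 0.1 for TC20 against TC15 and 0.1 for TC15 against TC10, which is the smallest that these group sizes can give. For TC20 against TC10 it was 0.8.

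MTPC4 had its 3 highest values in TC20. It had 221 and 169 normalised reads in TC10 plants 2 and 4, 230.4, 212 and 216 in TC15 plants 2, 6 and 10, and 231, 244 and 262 in TC20 plants 3, 5 and 9. The lowest TC20 value and the highest TC15 value were almost equal, and their counting intervals, 202 to 263 for TC20 plant 3 and 203 to 261 for TC15 plant 2, coincided. The mean ± SD was 195 ± 37.1 for TC10 (n = 2), 220 ± 9.47 for TC15 (n = 3) and 246 ± 15.4 for TC20 (n = 3). Of all tested entries, 2.21% had every TC20 library above the other 5 libraries, as MTPC4 did, against 1.44% with every TC20 library below them. Taken pair by pair, 9.31% had every TC20 library above every TC10 library (9.23% below), and 6.98% had every TC20 library above every TC15 library.

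The log2 difference of MTPC4 was 0.34 in TC20 against TC10, with a 95% interval of -0.10 to 0.78 (limma, adjusted p = 0.918), 0.16 in TC20 against TC15 (interval -0.23 to 0.55, limma adjusted p = 0.861) and 0.18 in TC15 against TC10 (interval -0.25 to 0.62, limma adjusted p = 0.845). The value for TC20 against TC10 was 0.15 without TC10 plant 4 and 0.54 without TC10 plant 2. Without plant 2 the interval was 0.0020 to 1.07 (limma, unadjusted p = 0.0494, adjusted p = 1). In exact two-sided permutation tests of the pairs, MTPC4 had p = 0.1 for TC20 against TC10, 0.4 for TC15 against TC10 and 0.1 for TC20 against TC15. The exact permutation test of the F statistic over 560 allocations of the libraries gave MTPC4 an unadjusted p of 0.0429, which became 0.799 after adjustment over all entries. The same F test gave 0.268 for MTP1, 0.221 for MTP12 and a higher p for MTP10. Of all tested entries, 4.98% had an exact p under 0.05 in that test. Leaving out each library in turn, a check added after the data were seen, gave exact p from 0.0143 to 0.229. It was under 0.05 only without TC10 plant 2, and was highest without TC20 plant 9 (0.229) and without TC10 plant 4 (0.171).

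MTP12, the Golgi zinc transporter, had the fewest reads of the 4, 78 to 146 per library before normalisation. It had 74.3 and 101 normalised reads in TC10 plants 2 and 4, 97.0, 125 and 129 in TC15 plants 2, 6 and 10, and 98.3, 121 and 111 in TC20 plants 3, 5 and 9. TC10 plant 2 was the lowest library, and TC10 plant 4 lay within the range of the other treatments, so the groups overlapped. The mean ± SD was 87.7 ± 19.0 for TC10 (n = 2), 117 ± 17.4 for TC15 (n = 3) and 110 ± 11.2 for TC20 (n = 3). The log2 difference was 0.33 in TC20 against TC10 (95% interval -0.26 to 0.93, limma adjusted p = 0.918). It was 0.42 in TC15 against TC10 (interval -0.18 to 1.01, limma adjusted p = 0.770), and -0.08 in TC20 against TC15 (interval -0.62 to 0.45, limma adjusted p = 0.952). Without TC10 plant 2, the values against TC10 were 0.11 for TC20 and 0.20 for TC15, and without TC10 plant 4 they were 0.55 and 0.64.

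MTP10, of the manganese group, had nearly the same mean in each treatment. It had 206 and 178 normalised reads in TC10 plants 2 and 4, 203, 232 and 155 in TC15 plants 2, 6 and 10, and 192 (plant 3), 200.2 (plant 5) and 188 (plant 9) in TC20. Both the highest and the lowest library were from TC15, and the TC20 libraries lay close together between them. The mean ± SD was 192 ± 19.5 for TC10 (n = 2), 197 ± 38.8 for TC15 (n = 3) and 194 ± 6.25 for TC20 (n = 3). The largest of its 3 pairwise log2 differences was 0.02, for TC15 against TC10, with a 95% interval of -0.49 to 0.53 (limma, adjusted p = 0.987). The interval still holds folds from 0.711 to 1.45, so differences of that size cannot be told from none in these libraries.

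**Figure D1:**
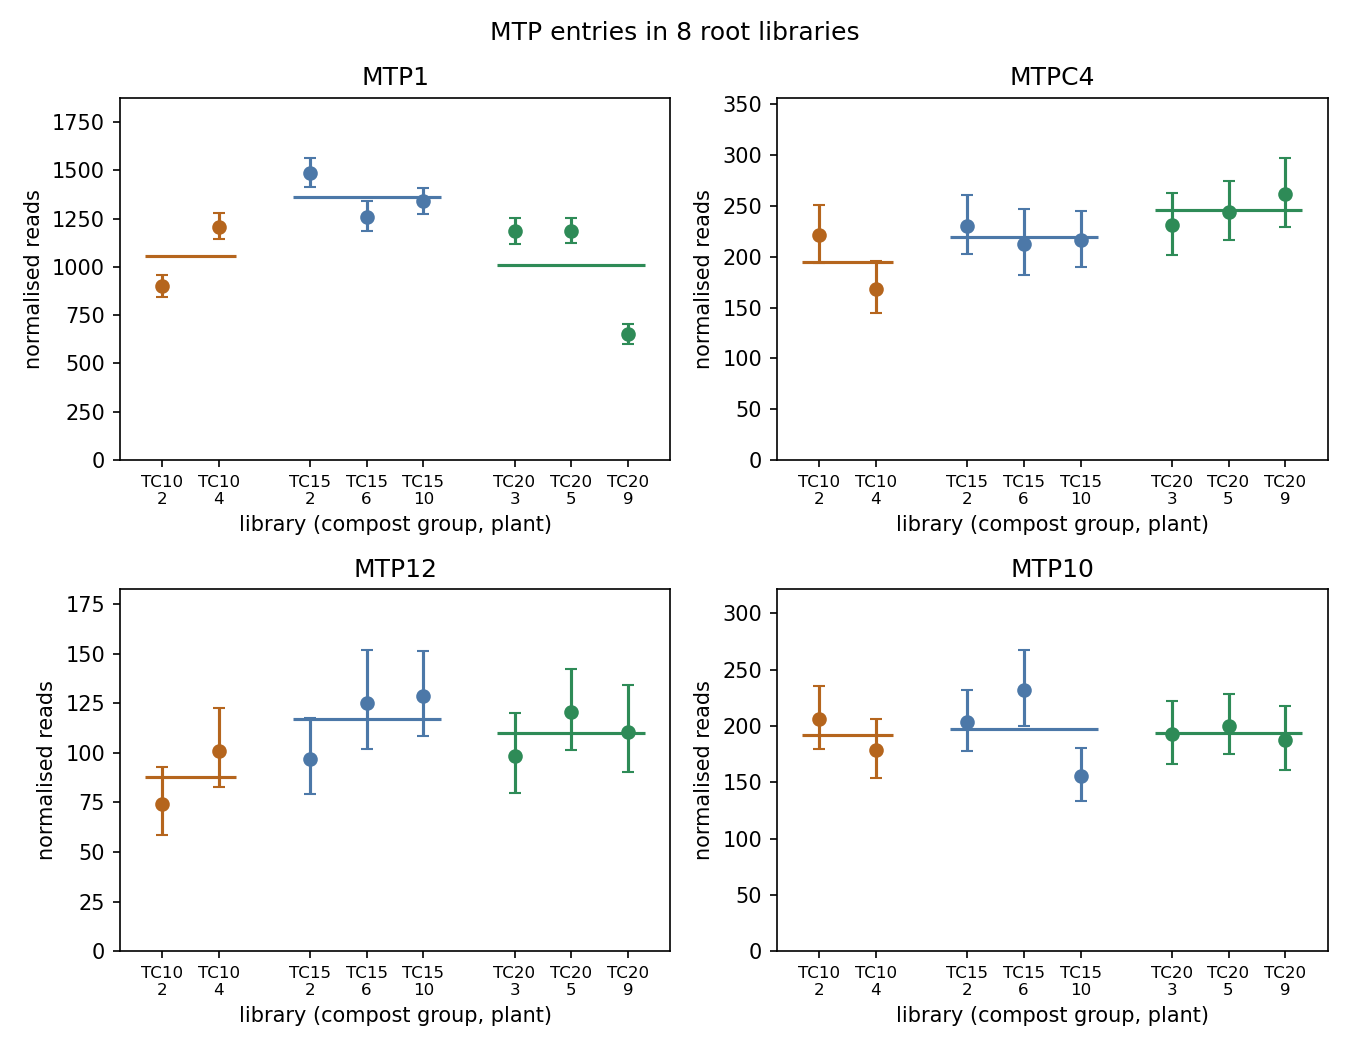
Normalised reads of MTP1, MTPC4, MTP12 and MTP10 (vertical axes, each from 0) in the 8 root libraries (horizontal axes, by compost group and plant). Points are single libraries, bars their 95% Poisson interval for counting error, and lines the group means. MTP1 was lowest in TC20 plant 9 at 651, and the 3 highest MTPC4 values were the TC20 libraries.

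None of the 4 entries passed the test of equal means in the 3 treatments with limma (F test, adjusted p from 0.813 for MTP1 to 0.998 for MTP10), and none had an unadjusted p under 0.05. Of all 4801 entries, 0% passed and 5.14% had an unadjusted p under 0.05. In the pairs, limma passed 0% of all entries in TC20 against TC10 and in TC15 against TC10, and 0.0208% in TC20 against TC15. None of the 4 passed in any pair, and none had an unadjusted p under 0.05 there, where 4.29%, 6.62% and 5.83% of all entries had one. The edgeR and DESeq2 tests on the recovered reads called none of the 4 either, across the treatments or in a pair. In TC15 against TC10, however, DESeq2 gave an adjusted p to MTP1 alone of the 4, so MTP10, MTP12 and MTPC4 could not be called there (unadjusted DESeq2 p of 0.906, 0.163 and 0.430 in that order). Of all entries edgeR called 0% in each of these comparisons. DESeq2, whose likelihood ratio test the series names, called 0.694% across treatments, 0.277% in TC20 against TC10, 0.861% in TC15 against TC10 and 0.214% in TC20 against TC15, of the entries it gave an adjusted p. Over the 4 entries and 3 pairs, the 95% intervals reached down to a fold of 0.474 and up to a fold of 2.06, both for MTP1.

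The spread between plants of the same treatment was described for each entry. On the log2 scale, the within-treatment SD was 0.35 for MTP1, 0.22 for MTP12, 0.20 for MTP10 and 0.14 for MTPC4, against a median of 0.32 over all tested entries. MTPC4 was thus among the steadier entries: 10.4% of all tested entries had a smaller within-treatment SD, against 24.0% for MTP10, 28.9% for MTP12 and 54.8% for MTP1. Part of the spread over all 8 libraries, which includes differences between treatments, is counting error. Counting alone would give a coefficient of variation of 9.64% in MTP12, where 16.9% was seen over the 8 libraries, and of 2.92% in MTP1, where 22.7% was seen. Over the 8 libraries, the variance of MTP1 was 60.1 times what counting gives, while those of MTP10, MTP12 and MTPC4 were 2.58, 3.07 and 3.34 times.

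MTP1 took most of the family's reads in every library. Its share was 64.2% of the summed MTP reads in TC10 plant 2 (95% Wilson interval 61.8 to 66.7%), 72.9% in TC10 plant 4 and 68.8 to 73.7% in the TC15 plants. In TC20 it took 69.4% in plant 3, 67.7% in plant 5 and 53.8% in plant 9 (Wilson interval 50.8 to 56.7%). In TC20 plant 9, MTPC4 reached 21.6% of the reads, MTP10 15.5% and MTP12 9.14%, the highest share of each in any library. Shares of a sum move together: with MTP1 at its lowest there, MTP10 and MTP12 had 188 and 111 normalised reads, within the range of their other libraries. MTPC4 took 11.4 to 11.8% in the 3 TC15 libraries, 13.5 to 21.6% in TC20 and 10.2 and 15.8% in TC10. These shares count reads, not molecules, because the transcript lengths behind the entries are not given, so they compare libraries and not genes. No test was made of them.

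**Figure D2:**
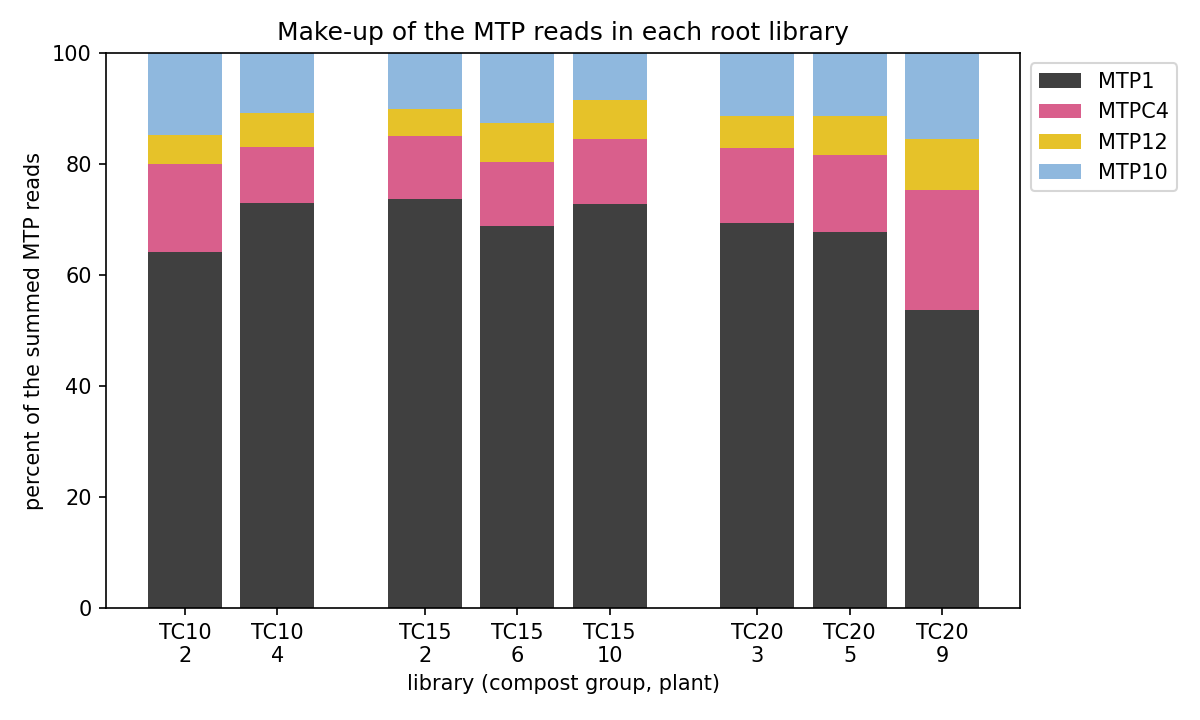
Share of each entry in the summed MTP reads (vertical axis, percent) in each root library (horizontal axis, by compost group and plant). Stacked bars add to 100 in each library. MTP1 made up 53.8% of the reads in TC20 plant 9 and 64.2 to 73.7% in the other libraries.

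Root zinc was then set against the 4 entries. In the 8 plants with a library, root zinc ran from 174 ug/g in TC20 plant 9 to 1075 ug/g in TC15 plant 10, and the 3 TC20 roots held the least, so zinc and compost cannot be fully told apart. Taken in order of rising zinc, MTPC4 had 262 normalised reads at 174 ug/g, 231 at 215, 244 at 277, 230.4 at 373, 221 at 491, 212 at 565, 169 at 637 and 216 at 1075 ug/g. Most steps up in zinc were steps down in MTPC4, and the highest value was in the root with least zinc. In the same order MTP1 had 651, 1184, 1186, 1487, 900.4, 1259, 1208 and 1339 normalised reads, with the lowest value in the root with least zinc and no steady order above that.

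MTPC4 had a negative correlation with root zinc across the 8 plants, but no measure of this passed once adjusted over all entries. On log2 scales Pearson r was -0.67 (exact permutation p = 0.0596, adjusted over all entries 0.914), and Spearman rho was -0.90 (exact p = 0.00456, adjusted over all entries 0.914). Of all tested entries, 0.312% had a rho as far from 0 or farther, and 3.56% had an exact p under 0.05 for rho. In a check also added after the data were seen, rho lay between -0.96 and -0.86 when single libraries were left out, with exact p of at most 0.0238. Zinc was farthest from its median in TC15 plant 10 and TC20 plant 9, and leaving both out gave r = -0.74 (exact p = 0.0597). Within treatments, with each treatment's mean taken away, r was -0.44. The limma slope was -0.14 per doubling of zinc, with a 95% interval of -0.35 to 0.06 (adjusted p = 0.918).

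For the other entries, r with zinc over the 8 plants was nearer to 0 than for MTPC4. MTP1 had Pearson r = 0.52 with zinc (exact permutation p = 0.186, adjusted over all entries 0.914) and rho = 0.62 (exact p = 0.115). Without TC15 plant 10 and TC20 plant 9, r was -0.12. The limma slope of MTP1 was 0.23 per doubling of zinc (95% interval -0.08 to 0.54, adjusted p = 0.918). It was 0.03 without TC20 plant 9 and 0.26 without TC15 plant 10, so the positive relation rests on TC20 plant 9. For MTP12 Pearson's r was 0.16 (exact permutation p = 0.703), with rho = 0.33 (exact p = 0.428). MTP10 had r = -0.34 (exact permutation p = 0.421), with rho = -0.17 (exact p = 0.703). Adjusted over all entries, both p of r were at least 0.934. Without the same 2 plants r was -0.08 for MTP12 and 0.14 for MTP10. Within treatments, r with zinc was 0.28 for MTP1, 0.70 for MTP12 and -0.64 for MTP10, so there MTP12 and MTP10 had values farther from 0 than MTPC4.

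**Figure D3:**
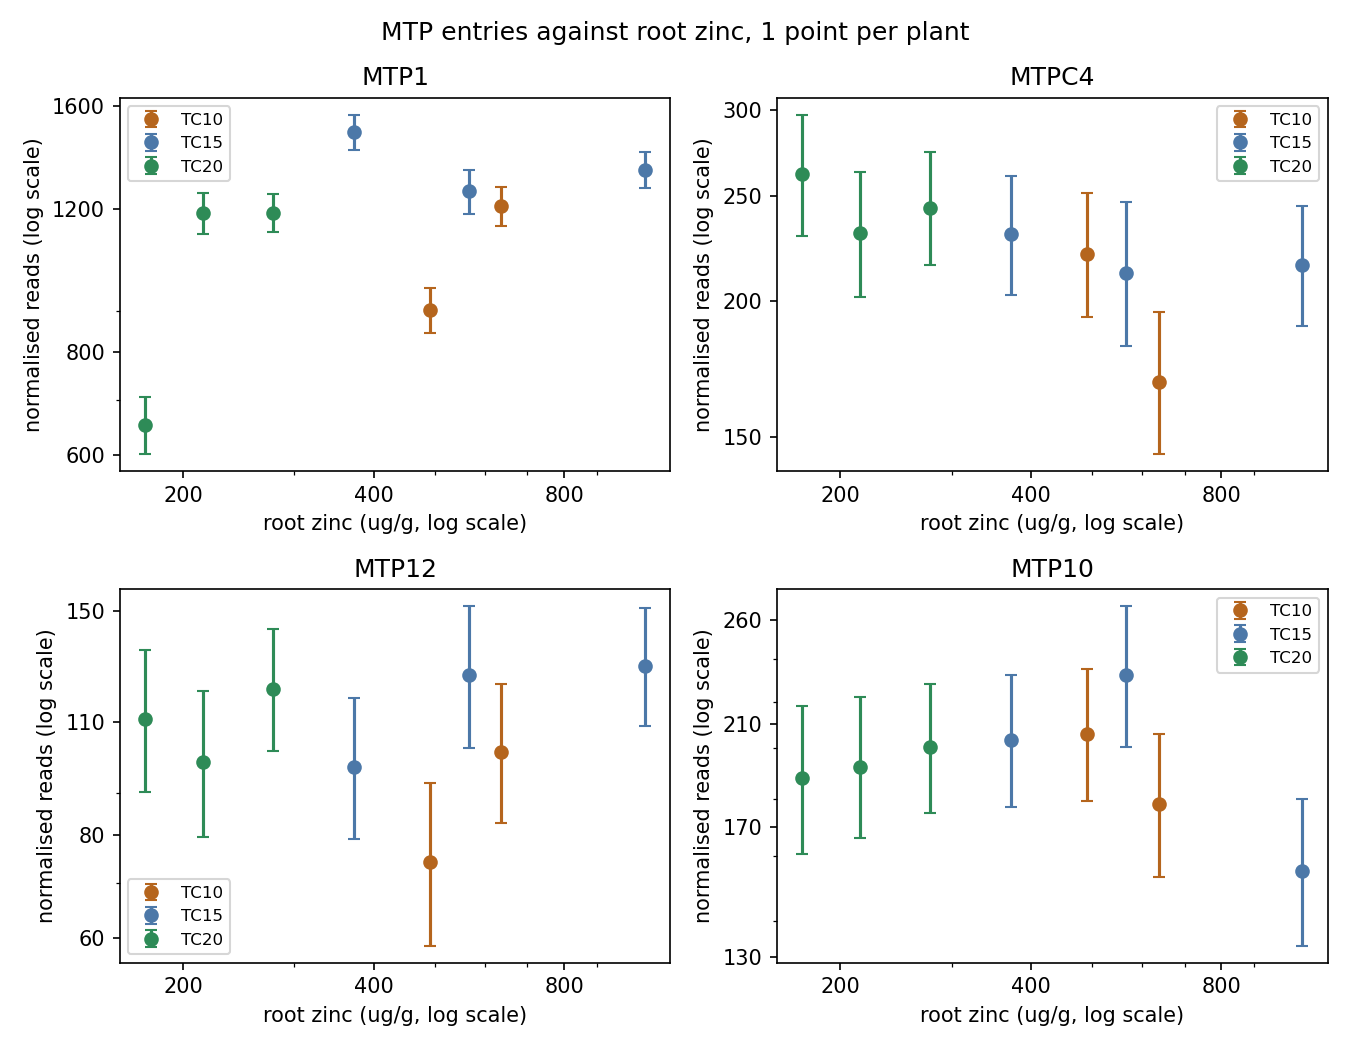
Normalised reads of each MTP entry (vertical axes, log scale) against root zinc in ug/g (horizontal axes, log scale), 1 point per plant, coloured by compost group. Bars are 95% Poisson intervals for counting error. MTPC4 had 262 normalised reads at 174 ug/g zinc and 169 at 637 ug/g, and MTP1 had its lowest value, 651, at 174 ug/g.

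Arsenic and lead gave no call in the family. Of 12 relations between the 4 entries and the 3 metals, none had an exact permutation p under 0.05 for Pearson r. The share of all entries that had one was not counted. With arsenic, Pearson r was -0.20 for MTP1, -0.47 for MTP10, 0.28 for MTP12 and -0.42 for MTPC4 (exact permutation p from 0.229 to 0.618), and rho was 0.02, -0.40, 0.40 and -0.64 in the same order (exact p from 0.0962 to 0.977). Without TC15 plants 2 and 10, the farthest from the median arsenic, r was -0.02, -0.10, -0.11 and -0.64, again in that order. With lead, r was -0.36, -0.25, 0.04 and -0.21 (exact permutation p from 0.323 to 0.915), for MTP1, MTP10, MTP12 and MTPC4, and rho was -0.36, -0.12, 0.12 and -0.07 (exact p from 0.389 to 0.882). Without TC10 plant 2 and TC15 plant 2, r with lead was 0.32 for MTP1, -0.47 for MTP10, 0.44 for MTP12 and -0.28 for MTPC4. Within treatments, r with arsenic was -0.24, -0.50, 0.79 and -0.25 and with lead -0.16, -0.27, 0.63 and -0.07 for the same 4 entries. Adjusted over all entries, the p of r was at least 0.833 for each of the 8 relations with arsenic and lead.

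In limma, the slopes per doubling of arsenic lay between -0.10 and 0.09 and those per doubling of lead between -0.15 and 0.01, with adjusted p of at least 0.841. None of the 4 entries passed for zinc, arsenic or lead, where 0%, 0% and 0% of all entries did, and none had an unadjusted p under 0.05 (4.25%, 5.1% and 6.87% of all entries). The edgeR test called none of the 4 for any metal, and called 0.0417% of all entries for lead. DESeq2 called none of the 4 either, and 0.116%, 0.219% and 0.813% of the entries with an adjusted p for zinc, arsenic and lead. The 12 intervals of the slopes ran from a fold of 0.714 to a fold of 1.45 per doubling of a metal, both ends from MTP1.

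**Figure D4:**
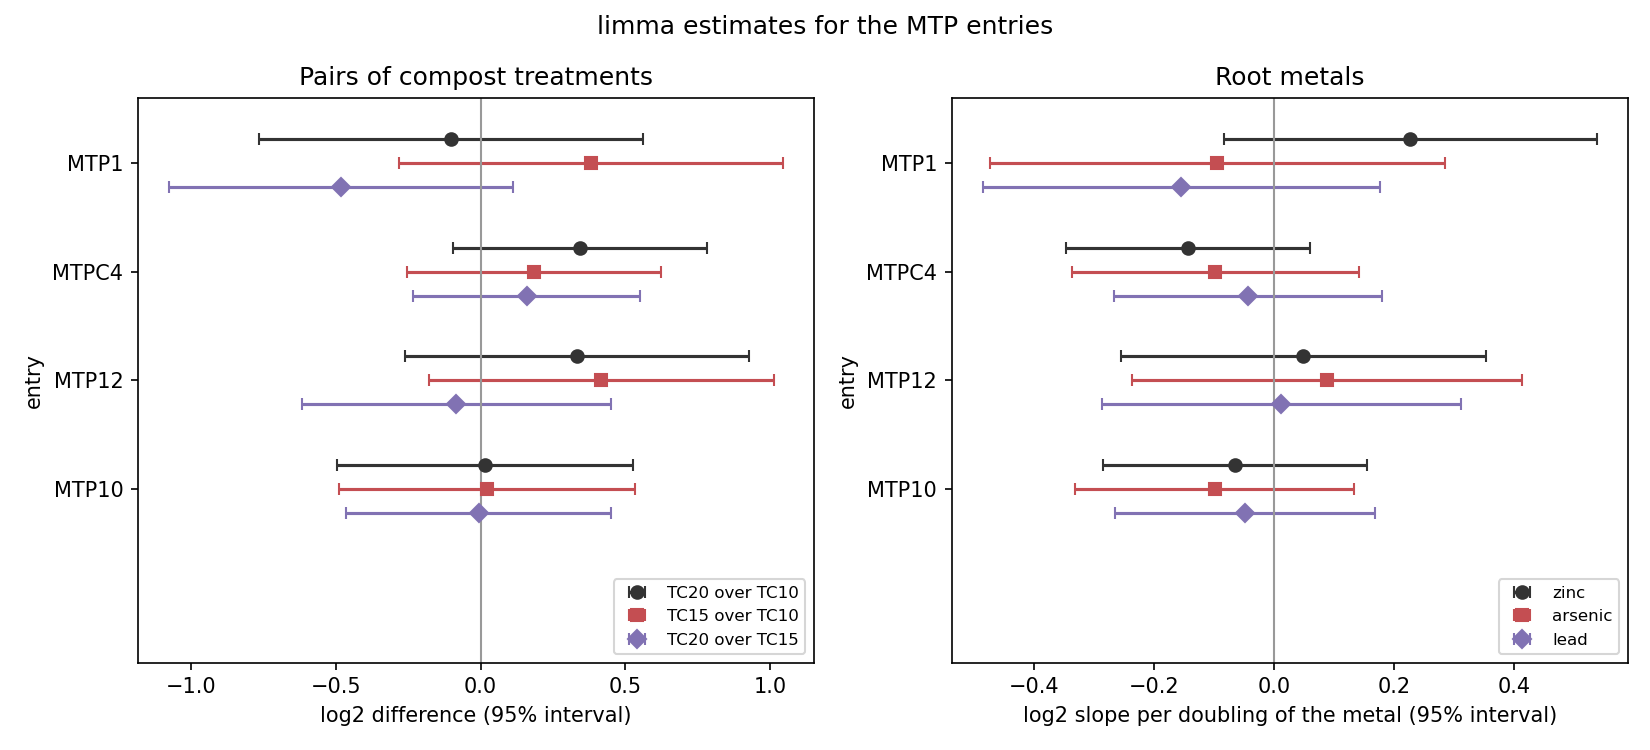
Left, limma log2 differences of each MTP entry in TC20 over TC10, TC15 over TC10 and TC20 over TC15; right, log2 slopes per doubling of root zinc, arsenic and lead. Points are estimates and bars 95% intervals on the horizontal axes. All 24 intervals contain 0, and the widest belong to MTP1.

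No pair of the 4 entries had a correlation that passed. Over the 8 libraries, the 6 pairs had Pearson r from -0.42 for MTP1 with MTPC4 (exact permutation p = 0.280, rho = -0.52, exact p = 0.197) to 0.25 for MTP1 with MTP12 (exact p = 0.519, rho = 0.29, exact p = 0.501). Adjusted over all entries, each p was at least 0.566. Without TC10 plant 2 and TC20 plant 9, the farthest from the median MTP1, r was 0.17 for MTP1 with MTPC4 and -0.12 for MTP1 with MTP12. Within treatments, r was -0.60 for MTP1 with MTPC4 and -0.64 for MTP12 with MTPC4, where it was 0.09 over the 8 libraries. For MTP12 with MTP10 r was -0.21, and 0.61 (exact permutation p = 0.196) without TC10 plant 2 and TC15 plant 10, the farthest from the median MTP12. Without TC15 plants 6 and 10, the farthest from the median MTP10, it was -0.38 (exact permutation p = 0.476). The sign thus depended on which entry set the plants left out.

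For each entry, the most similar others were looked up by Pearson r of log2(value + 1) over the 8 libraries, entries with locus codes for names set aside. As background, the closest partner of the median entry among the 4571 named ones had r = 0.961 and the most opposite r = -0.959, so such values are usual with 8 libraries. MTP1 was closest to BH049, a bHLH transcription factor (r = 0.995), PPR45, a pentatricopeptide repeat protein (0.972), and NEK7, a protein kinase (0.970). It was most opposite to NDUS4, a subunit of mitochondrial complex I (-0.986). BH049 had 339 normalised reads in TC20 plant 9, its lowest, and 579 in TC15 plant 2, its highest, the same libraries as for MTP1. MTP12 was closest to DEGP9, a protease (0.967), TMKL1, a receptor kinase relative (0.960), and NIP12, an aquaporin-type channel (0.954), and most opposite to XB35, a ubiquitin ligase (-0.979). MTP10 was closest to AGAL3, an alpha-galactosidase (0.936), OGG1, a DNA repair glycosylase (0.922), and EGY2, a plastid membrane protease (0.910), and most opposite to HSFB3, a heat stress factor (-0.937). MTPC4 was closest to DNJ50, a DnaJ chaperone (0.945), TL1Y, a thylakoid lumen protein (0.931), and CSN2, a subunit of the COP9 signalosome (0.902), and most opposite to AASS, which degrades lysine (-0.952). The closest partners of MTP10 and MTPC4 were thus less close than those of the median entry.

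Metal genes outside the family were counted from name lists. Of 22 such entries 21 were tested, and limma passed none in any comparison. Those with an unadjusted p under 0.05 numbered 2 in TC20 against TC10, 1 in TC15 against TC10, 3 in TC20 against TC15, and 3, 3 and 4 for zinc, arsenic and lead. Over all entries the shares were 4.29%, 6.62%, 5.83%, 4.25%, 5.1% and 6.87% in the same order. In edgeR these numbers were 2, 2, 3, 3, 2 and 4, with no call. The 3 zinc and iron uptake entries had a median log2 difference of 1.14 in TC20 against TC10, where the median of all entries was 0.00, -0.13 in TC15 against TC10 and 0.39 in TC20 against TC15. Of these 3, ZIP1 and ZIP4 are described below, and ZTP50 had 604, 583 and 684 normalised reads in TC20 plants, against 697 and 689 in TC10 plants. In TC20 against TC10 the 3 metal-pumping ATPases had -0.01, the 5 entries of zinc storage, chelation and efflux -0.31, and the 10 tested entries of manganese, iron and calcium compartments 0.08. No entry named after the zinc deficiency regulators BZP19 and BZP23 was found by name.

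The metal genes with the smallest p included ZIP4 and ZIP1, which take up zinc in Arabidopsis, and VITH2, of the vacuolar iron transporter family. ZIP1 had 252 ± 34.7 normalised reads in TC20 (SD, n = 3) and 120.5 ± 58.5 in TC10 (n = 2), a log2 difference of 1.14 (SE 0.44, limma adjusted p = 0.918). The TC15 libraries had 205 ± 90.0 normalised reads of ZIP1 (n = 3), and TC15 plant 6, at 295, was above every TC20 library. ZIP4 was the other entry with an unadjusted p under 0.05 in TC20 against TC10. It had 277 ± 144 in TC20 and 100.2 ± 10.9 in TC10, a log2 difference of 1.35 (SE 0.40, limma adjusted p = 0.918). In TC15 it had 91.6 ± 20.5 (n = 3), close to TC10. VITH2 had 276 ± 262 in TC20 and 35.1 ± 9.82 in TC15 (n = 3 each), a log2 difference of 2.52 (SE 0.67, limma adjusted p = 0.790). It had 177 ± 83.3 in TC10, and the log2 difference of TC15 over TC10 was -2.26 (SE 0.75, limma adjusted p = 0.731). PCR2, of a cadmium and zinc efflux family, was next there, with -2.50 (SE 1.10, limma adjusted p = 0.731). VITH2 was called by DESeq2 in TC20 against TC15 (DESeq2 adjusted p = 0.0154) and across the treatments (DESeq2 adjusted p = 0.0479), as was ZIP4 across the treatments (DESeq2 adjusted p = 0.0252). With MTP1, VITH2 had the lowest Pearson r of the 21 metal genes over the 8 libraries, at -0.90, and ZIFL1 the highest, at 0.76. No test was made of these r values. TC20 plant 9 had both the lowest MTP1 value and the highest VITH2 value, 574 normalised reads.

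Against the metals, the log2 slope on doublings of zinc was -0.73 for ZIP4 (SE 0.23, limma adjusted p = 0.918) and 0.24 for HMA5, a copper-pumping ATPase (SE 0.10, limma adjusted p = 0.918). NRAM3 and NRAM2, of the NRAMP metal transporters, had slopes of 0.52 (SE 0.12, limma adjusted p = 0.922) and 0.31 (SE 0.10, limma adjusted p = 0.938) per doubling of arsenic. Per doubling of lead, NRAM2 had 0.32 (SE 0.07, limma adjusted p = 0.435) and VITH4, another vacuolar iron transporter relative, 1.35 (SE 0.32, limma adjusted p = 0.442). DESeq2 called NRAM3 for arsenic (DESeq2 adjusted p = 0.0483), where it called 0.219% of the entries with an adjusted p. For lead it called NRAM2, NRAM3 and VITH4 (DESeq2 adjusted p from 0.00327 to 0.0439), and 0.813% of such entries. TC15 plant 2 had the least arsenic (36 ug/g) and lead (10 ug/g) of the plants with a library. It also had the lowest NRAM2, NRAM3 and VITH4, at 313, 147 and 17.7 normalised reads. How far these slopes and calls rest on that plant was not tested. The 4 MTP entries were called by none of the 3 tools in these comparisons.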

How the data were processed

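Root RNA of 9 plants was profiled, and the 8 libraries described above were used, grouped by title. The submitters' processing notes name kallisto and DESeq2, besides FastQC and Trim Galore for read quality and trimming. No version, transcript reference or way of assigning protein names is stated there or in the labels. The deposited signal of each library is reads per entry divided by 1 factor by the authors: multiplied back, 100% of the values were within 0.001 of a whole read. Entries missing from a file were taken as 0.

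The main test was limma 3.58.1 (R 4.3.3, trended empirical Bayes) on log2(value + 1). It covered the 4801 entries that reached 10 in 2 or more libraries, with Benjamini-Hochberg adjustment over them and a threshold of 0.05. On this scale the change of low entries is understated. The edgeR 4.0.16 quasi-likelihood test, DESeq2 1.42.0 and limma-voom were run on the recovered reads, where edgeR called 2 entries for lead and 0 in every other comparison. Without TC10 plant 2 or plant 4, the remaining TC10 library was assumed to vary like the other groups. Exact permutations used Python 3.11.15 and scipy 1.17.1. The limma, edgeR and DESeq2 fits were also tried on simulated data, for TC20 against TC15 only. The F test, the pairs with TC10 and the metal slopes were not tried there. Intervals on reads cover counting error only, as reads carry no molecular identifiers. The members, lists and tests were chosen with earlier results of these data known. Named besides the members were, per member, the 3 entries with the highest r and the 1 with the lowest, and, per comparison, the 2 metal genes with the smallest p.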

Additional observations from a re-analysis of the deposited data

How the results depend on the processing

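No MTP entry passed under any alternative that gave it an adjusted p: of 413 adjusted p from other tools, scalings, filters, pseudocounts, metal scales and left-out libraries, the lowest was 0.490. Of 416 such values, which include F statistics that have no sign, 21 turned in sign, all of differences or slopes that had not passed. The cause was not tested. Leaving out single libraries gave ranges of -0.31 to 0.18 for MTP1 and -0.0890 to 0.12 for MTP10 in TC20 against TC10, -0.11 to 0.18 for MTP10 and -0.00985 to 0.38 for MTPC4 in TC15 against TC10, and -0.17 to 0.12 for MTP10 in TC20 against TC15. The slopes ranged from -0.11 to 0.0506 (MTP10, zinc), -0.0637 to 0.0970 (MTP12, zinc), -0.22 to 0.16 (MTP1, arsenic), -0.19 to 0.0576 (MTP1, lead) and -0.19 to 0.12 (MTP12, lead). MTP12 on lead gave -0.0134 with library totals as scaling and -0.0295 per SD of lead, and MTP10 in TC20 against TC15 gave 0.0031 with limma-voom. Among the relations with metals and the MTP1 relation with branch number, leaving out the 2 farthest plants turned Pearson r to -0.12 (MTP1, zinc), 0.32 (MTP1, lead), 0.14 (MTP10, zinc), -0.0833 (MTP12, zinc), -0.11 (MTP12, arsenic) and -0.10 (MTP1, branch number).

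Over all entries, limma passed 0 in each comparison but TC20 against TC15, where it passed 1. DESeq2 called 35 across treatments, 14 in TC20 against TC10, 22 in TC15 against TC10, 11 in TC20 against TC15, and 6, 10 and 42 for zinc, arsenic and lead. For lead edgeR called 2 and limma-voom 4. In TC20 against TC15 both called 0. Without the filter 1 passed across treatments, and with treatment as a covariate 1 passed for zinc. Leaving out libraries gave 0 to 1 across treatments, 0 to 2 in TC20 against TC10, 0 to 4 in TC15 against TC10, 0 in TC20 against TC15 and 0 to 2 for lead, with the highest counts without TC10 plant 4, and for lead without TC10 plant 2. Scaling by library totals gave all entries a median of 0.13 in TC15 against TC10, in place of -0.0047, and MTP1, MTP12, MTPC4 and MTP10 then had 0.51, 0.55, 0.32 and 0.15. No paired analysis was possible because the labels name separate plants in each treatment. With 2 or 3 plants a group, folds inside the intervals given above cannot be told from no change.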

Other observations

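The 4 MTP entries were also set against 4 measures of the shoot in the 8 plants, which makes 28 relations with the metals included. Of the 28, 2 had an exact permutation p under 0.05 for Pearson r, and the lowest p adjusted over all entries was 0.389. The share of all entries under 0.05 was not counted for these relations, so the 2 cannot be set against it. Both involved MTP12. With the longest branch it had r = 0.72 (exact permutation p = 0.0404, adjusted over all entries 0.845; rho = 0.57, exact p = 0.151), and with the stress score, whose scale the labels do not explain, r = 0.71 (exact permutation p = 0.0452, adjusted over all entries 0.746; rho = 0.69, exact p = 0.0714). Without the 2 plants farthest from the median of each measure, r was 0.47 (exact p = 0.294) and 0.41 (exact p = 0.533), and within treatments it was 0.55 and 0.70. MTP1 had r = 0.76 with branch number (exact permutation p = 0.0522, adjusted over all entries 0.389; rho = 0.47, exact p = 0.245). Without TC15 plant 10 and TC20 plant 9 that r was -0.10. With the same plants left out, r with branch number was 0.83 for MTPC4 (exact permutation p = 0.0333), against -0.18 over the 8 plants, 0.31 for MTP10, against -0.12, and -0.0028 for MTP12, against 0.08. The r of MTP1 with the longest branch was -0.02 over the 8 plants and 0.36 without TC10 plant 2 and TC20 plant 9, and that of MTP10 with height was 0.07, and -0.17 without TC15 plant 2 and TC20 plant 5. MTP1 and the stress score had r = 0.57 (exact permutation p = 0.117), with rho = 0.75 (exact p = 0.0476, adjusted over all entries 0.619). That r was 0.58 without TC15 plants 6 and 10 (exact permutation p = 0.2), and 0.17 within treatments.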
